A study of Mus musculus with 23 samples.

Results

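The 39 genes described here were the mouse Wnt ligands, their Frizzled receptors (Fzd), the co-receptors Lrp5 and Lrp6, and the secreted antagonists of the Sfrp and Dkk families. They were chosen by gene family, with earlier results of these data known, and all 39 were found among the 21938 protein-coding genes of the annotation. They fell into 19 ligands, 10 Frizzled receptors, 2 co-receptors, 4 Sfrp genes and 4 Dkk genes. Of the ligands, Wnt2b, Wnt3a, Wnt5a and Wnt8b are known from the cortical hem and were described beside the other 15.

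Wnt proteins are secreted, lipid-modified ligands that bind a Frizzled receptor on the receiving cell. When Lrp5 or Lrp6 joins the complex, beta-catenin escapes degradation and acts in the nucleus with factors of the TCF/LEF family, while other Wnt signals run through cell polarity or calcium. Sfrp proteins bind the ligands outside the cell, and most Dkk proteins block Lrp5 and Lrp6. The cortical hem is the medial edge of the early cortex, a source of Wnt and Bmp signals that patterns the hippocampus, and it also gives rise to many Cajal-Retzius (CR) cells, which secrete Reelin beneath the surface of the cortex.

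The study sorted cerebral cortex cells of the mouse strain Tg(Ebf2-EGFP)FB58Gsat by fluorescence and profiled H3K27ac, found at active promoters and enhancers, and H3K27me3, deposited by the Polycomb machinery at repressed genes. The 4 cell groups were Ebf2-EGFP- cells of E11.5 (E, embryonic day) and Ebf2-EGFP+ cells of E11.5, of E13.5 and of E15.5, all carrying the transgene and with no other treatment. EGFP follows Ebf2, so Ebf2-EGFP+ cells at E11.5 are mainly preplate neurons, those at E15.5 are mostly CR cells, and Ebf2-EGFP- cells are mostly progenitors. The 23 samples were 15 ChIP samples in 8 groups and 8 input samples in 4 groups, with 2 libraries per group except for H3K27ac in Ebf2-EGFP- cells of E11.5, which had 1. The data were 8 lists of peaks, 1 for each mark and cell group, with no separate lists for the replicates of a group. The H3K27ac list of Ebf2-EGFP- cells of E11.5 rests on 1 library. A transcription start site (TSS, the 5′ end of the gene) was called marked if the distance to a peak was at most 5 kb. Each group had a single list and hence neither replicate error nor test, so all differences between lists, stages or gene classes are described only. Sequencing depth is unknown, and a peak that is not listed may be below the detection limit of that list.

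The lists held between 1386 peaks (H3K27ac, E11.5 Ebf2-EGFP-) and 102881 peaks (H3K27ac, E13.5 Ebf2-EGFP+), so members are read beside all genes of the same list. Of 6 progenitor markers, none had H3K27ac in the list of Ebf2-EGFP- cells of E11.5, where 4.17% of all genes had it. H3K27me3 was listed there at 4 of them (Sox2, Nes, Vim and Hes1), beside 48.2% of all genes. The CR, neuronal and further hem markers, and those of choroid plexus and meninges, also had H3K27me3 at 4 of 6 each. These counts do not set progenitor markers apart in that list and do not bear out the label of these cells. Progenitor markers with H3K27ac numbered 5, 6 and 4 in Ebf2-EGFP+ cells of E11.5, E13.5 and E15.5. The last 4 (Hes5, Nes, Vim and Hes1) had it in cells that are mostly CR cells by the study's account. In Ebf2-EGFP+ cells of E13.5 H3K27me3 was listed at 2 of 6 CR markers (Trp73 and Ebf3), beside 9.31% of all genes. It was listed there at 1 of 6 progenitor, neuronal and further hem markers each. At E15.5 it was listed at Trp73 (1.06% of all genes). H3K27ac was listed at 5, 6 and 5 of 6 CR markers along the Ebf2-EGFP+ stages, in order of age (49.9%, 60.9% and 52.3% of all genes). At the same stages it was listed at 3, 6 and 4 of 6 further hem markers, at 3, 4 and 2 of 6 markers of choroid plexus and meninges, at 1, 2 and 0 of 6 markers of blood and vessels, and at 2, 5 and 2 of 6 microglia markers, beside 5, 4 and 5 of 6 neuronal markers. Among these, Ttr, Col3a1, Hbb-bt and Pecam1 had no peak within 5 kb in any list. The part of other cell types in the results was not tested, and in sorted cells a mark in fewer cells and a weaker mark per cell cannot be told apart.

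The sequences that carried the main patterns are shown first, from GRCm38 (mm10), read 5′ to 3′ on the strand of the gene. Capitals mark bases that also lay in a peak of the other histone mark, in any cell group. Bases annotated as untranslated were left out. The hem ligand Wnt2b is shown by its H3K27ac peak in Ebf2-EGFP+ cells of E11.5 up to the base before the TSS (chr3:104961922-104962169, minus strand), of which 45 of 248 bases also lay in the H3K27me3 peak of the same cells. Wnt3a is shown by the upstream H3K27me3 peak of Ebf2-EGFP- cells of E11.5 (chr11:59291004-59291276, minus strand), where 223 of 273 bases had H3K27ac in Ebf2-EGFP+ cells of E13.5. Wnt5a is shown by its intronic H3K27ac peak of Ebf2-EGFP+ cells of E11.5 (chr14:28506529-28506698, plus strand), which met no peak of another list. Wnt8b had no peak, so the 250 bases before its RefSeq start are shown (chr19:44493222-44493471, plus strand, GRCm38.p6).
Wnt2b: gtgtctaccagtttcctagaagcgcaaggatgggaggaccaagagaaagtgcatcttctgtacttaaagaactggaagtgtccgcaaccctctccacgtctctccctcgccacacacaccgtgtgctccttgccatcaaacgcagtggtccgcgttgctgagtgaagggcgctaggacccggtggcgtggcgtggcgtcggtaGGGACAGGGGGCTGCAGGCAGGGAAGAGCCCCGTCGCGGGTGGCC
Wnt3a: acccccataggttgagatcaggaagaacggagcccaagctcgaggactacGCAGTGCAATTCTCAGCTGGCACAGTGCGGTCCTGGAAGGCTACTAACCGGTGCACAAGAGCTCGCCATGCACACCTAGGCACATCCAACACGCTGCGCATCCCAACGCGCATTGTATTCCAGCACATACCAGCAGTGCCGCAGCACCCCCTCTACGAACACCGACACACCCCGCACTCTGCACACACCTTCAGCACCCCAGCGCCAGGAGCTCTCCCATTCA
Wnt5a: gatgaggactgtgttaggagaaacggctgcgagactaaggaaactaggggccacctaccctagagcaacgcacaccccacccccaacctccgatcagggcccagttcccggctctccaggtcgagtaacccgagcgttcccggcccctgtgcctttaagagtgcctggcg
Wnt8b: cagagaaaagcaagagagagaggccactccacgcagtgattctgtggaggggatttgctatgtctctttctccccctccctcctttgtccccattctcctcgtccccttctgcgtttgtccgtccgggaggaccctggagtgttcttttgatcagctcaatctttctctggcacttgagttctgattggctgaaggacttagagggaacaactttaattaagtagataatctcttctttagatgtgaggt
These stretches held 17, 15, 10 and 5 CpG dinucleotides at a GC content of 61.3%, 59.3%, 61.8% and 48.4%, in the order printed.

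A further 4 genes are shown, Wnt1, Wnt10b and Wnt9a for the overlap of the marks and Dkk3 for its H3K27me3 at E15.5. Wnt1 is given from the upstream part of an H3K27me3 peak of Ebf2-EGFP- cells of E11.5 (chr15:98789664-98789856, plus strand), all 193 bases of which had H3K27ac in Ebf2-EGFP+ cells of E11.5 or of E15.5. Wnt10b is given by an H3K27ac peak of Ebf2-EGFP+ cells of E13.5 (chr15:98776377-98776578, minus strand), which was centred in an intron and whose 202 bases all had H3K27me3 in the same cells and in Ebf2-EGFP- cells of E11.5. Wnt9a is given by a stretch centred in an intron (chr11:59306993-59307155, plus strand), the H3K27ac peak of Ebf2-EGFP- cells of E11.5, with 113 of 163 bases under H3K27me3 of the same cells. Dkk3 is given by the single H3K27me3 peak of any member in Ebf2-EGFP+ cells of E15.5 (chr7:112160789-112161036, minus strand), which met no H3K27ac peak.
Wnt1: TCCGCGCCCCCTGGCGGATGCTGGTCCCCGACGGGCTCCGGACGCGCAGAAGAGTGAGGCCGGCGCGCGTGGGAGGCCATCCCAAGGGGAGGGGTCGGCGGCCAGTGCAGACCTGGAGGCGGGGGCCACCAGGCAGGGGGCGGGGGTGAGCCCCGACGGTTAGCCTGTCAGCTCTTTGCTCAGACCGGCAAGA
Wnt10b: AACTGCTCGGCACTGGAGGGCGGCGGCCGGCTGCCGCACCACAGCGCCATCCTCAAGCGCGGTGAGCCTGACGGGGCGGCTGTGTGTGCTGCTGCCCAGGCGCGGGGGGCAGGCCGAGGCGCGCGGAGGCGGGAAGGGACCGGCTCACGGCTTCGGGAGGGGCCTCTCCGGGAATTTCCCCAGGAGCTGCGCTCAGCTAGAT
Wnt9a: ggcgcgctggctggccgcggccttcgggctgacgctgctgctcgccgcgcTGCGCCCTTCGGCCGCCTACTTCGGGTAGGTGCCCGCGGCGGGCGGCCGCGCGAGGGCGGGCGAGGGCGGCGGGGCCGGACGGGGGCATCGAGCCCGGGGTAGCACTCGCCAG
Dkk3: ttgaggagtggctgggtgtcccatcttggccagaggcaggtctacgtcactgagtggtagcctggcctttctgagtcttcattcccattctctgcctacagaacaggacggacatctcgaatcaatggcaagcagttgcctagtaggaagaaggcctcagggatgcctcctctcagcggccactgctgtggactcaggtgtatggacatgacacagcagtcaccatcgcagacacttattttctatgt
The stretch at Dkk3 held 5 CpG dinucleotides in 248 bases, and that at Wnt9a held 29 in 163 bases.

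Across the members, H3K27ac was common in Ebf2-EGFP+ cells and H3K27me3 in Ebf2-EGFP- cells, as over all genes. In Ebf2-EGFP- cells of E11.5, 4 of the 39 members had H3K27ac (4.17% of all protein-coding genes had it) and 30 had H3K27me3 (48.2% of all genes). In Ebf2-EGFP+ cells of E11.5, 26 members had H3K27ac (49.9% of all genes) and 3 had H3K27me3 (4.92%). At E13.5, 35 members had H3K27ac (60.9% of all genes) and 10 had H3K27me3 (9.31%), and at E15.5, 22 had H3K27ac (52.3%) and Dkk3 alone had H3K27me3 (1.06%). The members' share was close to that of all genes for H3K27ac at E15.5.

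**Figure D1:**
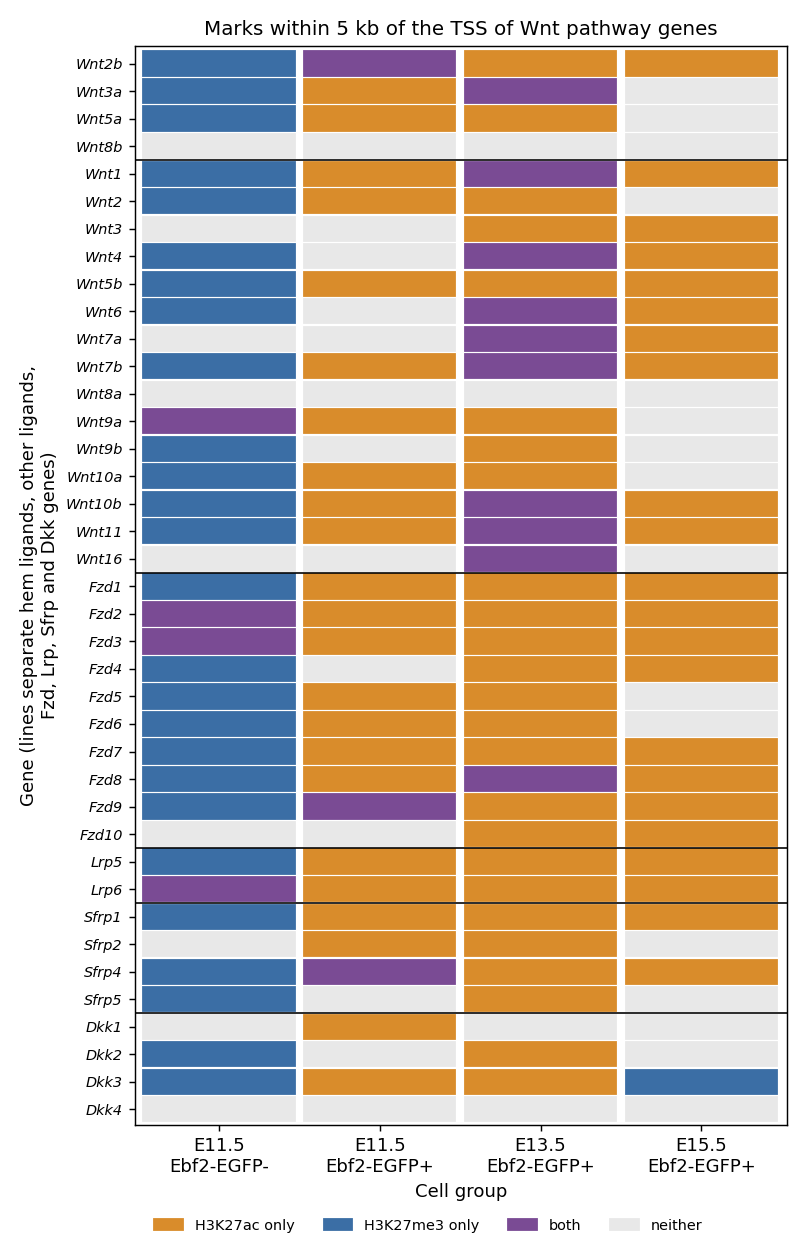
State of each of the 39 TSSs (rows) in the 4 cell groups (columns), by colour: H3K27ac only, H3K27me3 only, both marks or neither, from peaks within 5 kb. Most rows show H3K27me3 only in Ebf2-EGFP- cells of E11.5 and H3K27ac in Ebf2-EGFP+ cells. The state with both marks at E13.5 holds 9 ligands and Fzd8, and Wnt8b, Wnt8a and Dkk4 have no peak in any list.

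Of the 30 members with H3K27me3 in Ebf2-EGFP- cells of E11.5, 24 had H3K27ac in Ebf2-EGFP+ cells of E11.5, near the 72.3% of all genes with that H3K27me3. The peaks of the 2 lists overlapped at 13 of the 24, among them Wnt1, Wnt2, Wnt7b, Fzd1, Fzd5, Fzd8, Lrp5 and Sfrp1. Such overlap was not counted over all genes, so it cannot be read as particular to the members. Within 1 kb of the TSS 15 members had this pair of marks, and with peaks of at least 300 bp 9 had it. The pair was not counted over all genes under these limits. Of the 30, 8 also had H3K27me3 in Ebf2-EGFP+ cells of E13.5, and 7 of the 8 were ligands. Of all genes with H3K27me3 in Ebf2-EGFP- cells of E11.5, 14.4% did so. H3K27ac was present at all 3 Ebf2-EGFP+ stages at 16 members (33.1% of all genes): Wnt2b, Wnt1, Wnt5b, Wnt7b, Wnt10b, Wnt11, Fzd1, Fzd2, Fzd3, Fzd7, Fzd8, Fzd9, Lrp5, Lrp6, Sfrp1 and Sfrp4.

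The 39 members took 17 different courses through the 4 cell groups, and 8 of these courses held a single member. The 3 fullest courses held 5 members each. Wnt5b, Fzd1, Fzd7, Lrp5 and Sfrp1 had H3K27me3 only in Ebf2-EGFP- cells of E11.5 and H3K27ac only in all Ebf2-EGFP+ groups, a course of 17.3% of all genes. Wnt1, Wnt7b, Wnt10b, Wnt11 and Fzd8 differed from it by both marks at E13.5, a course of 3.01% of all genes. Wnt5a, Wnt2, Wnt10a, Fzd5 and Fzd6 carried H3K27ac at both E11.5 and E13.5 and no peak at E15.5, a course of 3.07% of all genes.

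**Figure D2:**
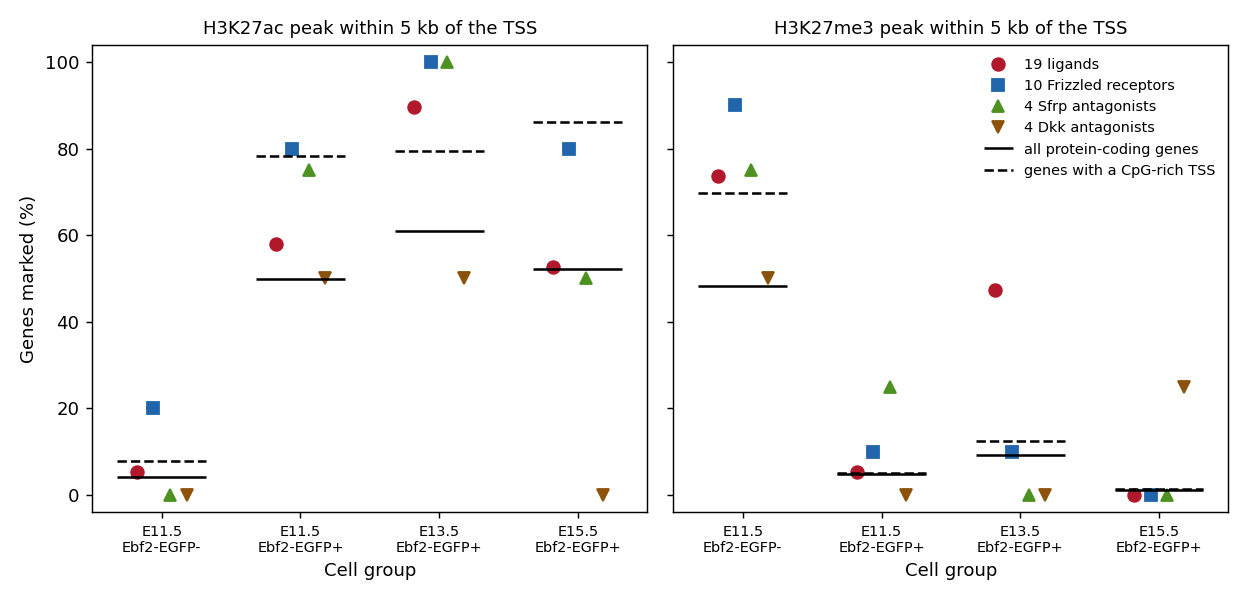
Percentage of genes with a peak within 5 kb of the TSS (y axis) in each cell group (x axis) for H3K27ac (left) and H3K27me3 (right); points are gene classes, solid lines all protein-coding genes and dashed lines genes with a CpG-rich TSS. The ligands stand apart for H3K27me3 at E13.5, where 47.4% of them and 9.31% of all genes are marked. The 4 Dkk genes have no H3K27ac at E15.5. None of their TSSs is CpG-rich, and of all genes without a CpG-rich TSS 25.2% are marked then.

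The cortical hem ligands each took a different course. H3K27ac was listed at none of the 4 in Ebf2-EGFP- cells of E11.5, at Wnt2b, Wnt3a and Wnt5a in Ebf2-EGFP+ cells at E11.5 and E13.5, and at Wnt2b alone at E15.5. H3K27me3 was listed at Wnt2b, Wnt3a and Wnt5a in Ebf2-EGFP- cells of E11.5, at Wnt2b in Ebf2-EGFP+ cells of E11.5, at Wnt3a at E13.5 and at none at E15.5. Of the other 15 ligands, 1, 8, 14 and 9 had H3K27ac and 11, 0, 8 and 0 had H3K27me3 in the same order of cell groups. Of all genes, 4.17%, 49.9%, 60.9% and 52.3% had H3K27ac and 48.2%, 4.92%, 9.31% and 1.06% had H3K27me3. With 4 genes on 1 side, no difference between hem and other ligands can be read from these counts.

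Wnt2b, a canonical ligand on chromosome 3, had the narrowest H3K27me3 peak of the 3 marked hem ligands in Ebf2-EGFP- cells of E11.5, 136 bp centred 159 bp downstream of the TSS. In Ebf2-EGFP+ cells of E11.5 an H3K27me3 peak of 196 bp (chr3:104961771-104961966) lay across the TSS and overlapped an H3K27ac peak of 315 bp (chr3:104961855-104962169) in the same cells. This state with both marks at E11.5 was shared with Fzd9 and Sfrp4 among the members. At E13.5 Wnt2b had 6 H3K27ac peaks with a summed width of 1399 bp, against 488 bp in 2 peaks at E11.5 and 444 bp in 2 peaks at E15.5. The nearest H3K27ac peak covered the TSS at E11.5 and E13.5 and lay 145 bp from it at E15.5.

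Wnt3a, which is required for growth of the hippocampus, lies on chromosome 11. Its H3K27ac peaks in Ebf2-EGFP+ cells of E11.5 were 191 bp and 213 bp wide and were centred at 1929 bp and -3072 bp from the TSS (negative values lie upstream), outside the 1 kb window. At E13.5 an H3K27ac peak of 338 bp (chr11:59290383-59290720) and a second of 247 bp (chr11:59290980-59291226) lay on either side of the TSS. An H3K27me3 peak of 382 bp (chr11:59290653-59291034) spanned the TSS between them and overlapped both. No peak of either mark was within 5 kb at E15.5, while 8 distal H3K27ac peaks, over 5 kb and up to 100 kb away, were listed. The TSS of Wnt9a lies 16176 bp from that of Wnt3a, so these distal windows are largely shared. The course of Wnt3a was that of 0.939% of all genes.

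Wnt5a, a ligand known mainly for signalling without beta-catenin, lies on chromosome 14 and had a single peak in each of 3 lists. The H3K27me3 peak of Ebf2-EGFP- cells of E11.5 was 232 bp wide and centred 1222 bp downstream. The H3K27ac peaks were 170 bp at 1863 bp downstream in Ebf2-EGFP+ cells of E11.5 and 206 bp at 77 bp downstream at E13.5 (chr14:28504725-28504930). None of the 3 overlapped another. Wnt8b, on chromosome 19, had no peak within 5 kb in any list, like Wnt8a, Dkk4 and 22.7% of all genes. Its distal H3K27ac peaks numbered 0, 4, 13 and 3 from Ebf2-EGFP- cells of E11.5 to E15.5, and its distal H3K27me3 peaks 6, 0, 3 and 0. Within 1 kb of the TSS H3K27ac in Ebf2-EGFP+ cells of E11.5 was left at Wnt2b alone of the hem ligands.

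**Figure D3:**
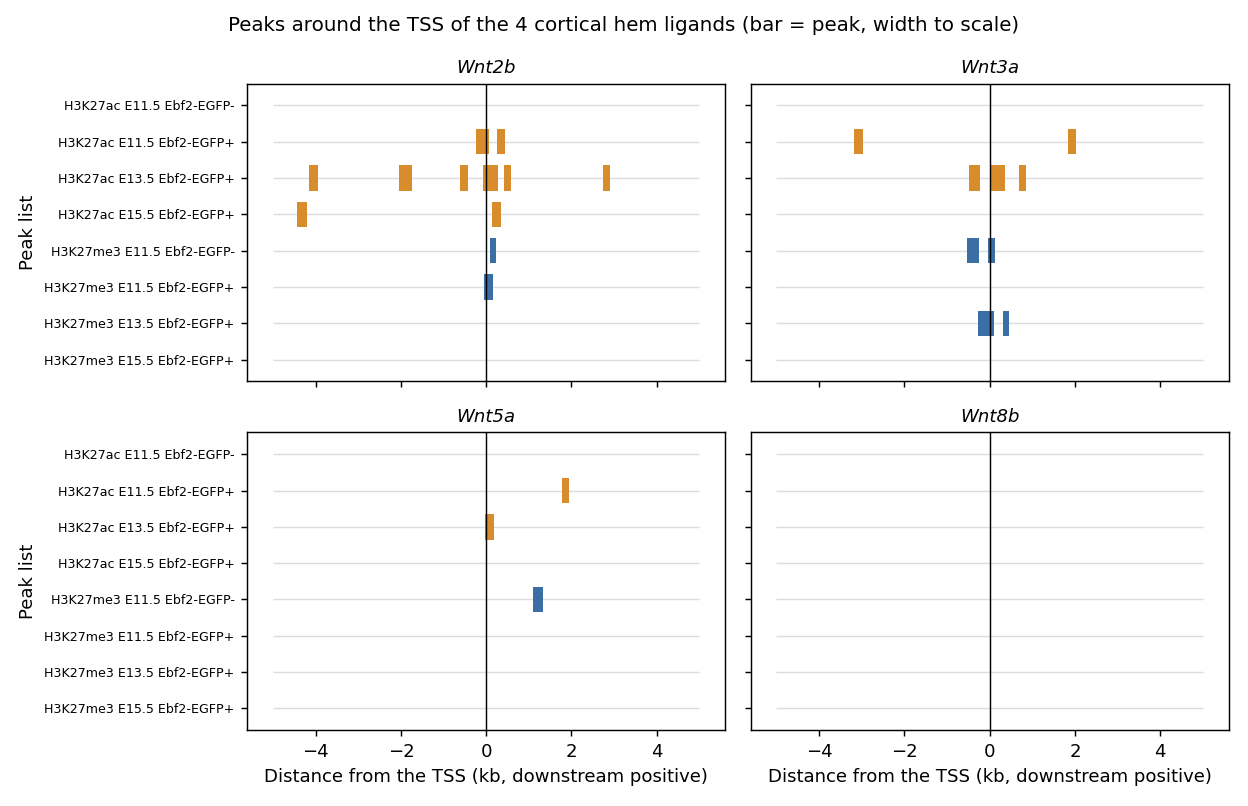
Peaks of the 8 lists (y axis) by distance from the TSS in kb (x axis) for the 4 cortical hem ligands, with H3K27ac in orange and H3K27me3 in blue and bar widths to scale. Wnt2b carries H3K27ac on or within 145 bp of the TSS at all 3 Ebf2-EGFP+ stages, Wnt3a has both marks within 32 bp of the TSS at E13.5, Wnt5a has a single peak in each of 3 lists, and Wnt8b has none.

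The ligands differed from the receptors and antagonists most in H3K27me3 at E13.5. It was listed at 9 of 19 ligands, at 1 of 10 Frizzled receptors and at none of the 2 co-receptors, 4 Sfrp and 4 Dkk genes, beside 9.31% of all genes. Each of these 10 genes also had H3K27ac, so both marks were present at 10 members (8.39% of all genes). Of all genes, 0.925% had H3K27me3 without H3K27ac there, so most genes with H3K27me3 in that list had both marks. The ligands were Wnt3a, Wnt1, Wnt4, Wnt6, Wnt7a, Wnt7b, Wnt10b, Wnt11 and Wnt16, and the receptor was Fzd8. The peaks of the 2 marks overlapped at Wnt3a, Wnt1, Wnt4, Wnt6, Wnt10b, Wnt11 and Fzd8, with no count of such overlap over all genes. With a window of 1 kb both marks were left at 5 ligands and Fzd8, and with peaks of at least 300 bp at 2 ligands. Shares of all genes with both marks under these limits were not computed.

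Wnt1, known from the boundary of midbrain and hindbrain, had a 199 bp H3K27me3 peak centred in coding sequence (chr15:98790093-98790291) that overlapped the 305 bp H3K27ac peak downstream of the TSS (chr15:98789858-98790162). A second H3K27me3 peak of 166 bp was centred at -2123 bp. Wnt10b, whose TSS is 11707 bp from that of Wnt1, had 4 H3K27me3 peaks of 116 to 310 bp and 4 H3K27ac peaks of 150 to 222 bp, and took the same course as Wnt1. Its widest H3K27me3 peak (chr15:98776373-98776682) covered the H3K27ac peak printed above in full. In Ebf2-EGFP- cells of E11.5 Wnt10b had 5 H3K27me3 peaks and Wnt1 had 4, the widest of 336 bp and 479 bp.

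Wnt4, best known from the kidney and the female reproductive tract, had H3K27me3 peaks of 150 bp and 176 bp at E13.5, the second (chr4:137277535-137277710) overlapping a 260 bp H3K27ac peak. Wnt11, a ligand of cell movement, had a 272 bp H3K27me3 peak on the TSS (chr7:98834915-98835186) that lay within a 478 bp H3K27ac peak. At Wnt6 the overlap was away from the TSS, with a 225 bp H3K27me3 peak centred 3914 bp downstream (chr1:74775694-74775918) on a 353 bp H3K27ac peak. Wnt4 and Wnt6 shared a course with no H3K27ac in Ebf2-EGFP+ cells of E11.5, found in 0.629% of all genes.

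At 3 ligands the marks were near the same TSS but apart from each other. Wnt7a, a ligand of cortical progenitors and of brain vessels, had a 123 bp H3K27me3 peak 1394 bp downstream (chr6:91409908-91410030) between H3K27ac peaks at 346 bp and 2396 bp. Wnt7b, its close relative, had a 351 bp H3K27me3 peak 4842 bp downstream (chr15:85577456-85577806), near the edge of the window, and H3K27ac peaks at 794 bp and -269 bp. Wnt16 had a 177 bp H3K27me3 peak 723 bp downstream (chr6:22288862-22289038) and a 126 bp H3K27ac peak at -3609 bp. Wnt7a and Wnt16 had no peak of either mark at E11.5. Their courses were shared with no other member and were found in 0.26% and 0.492% of all genes.

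**Figure D4:**
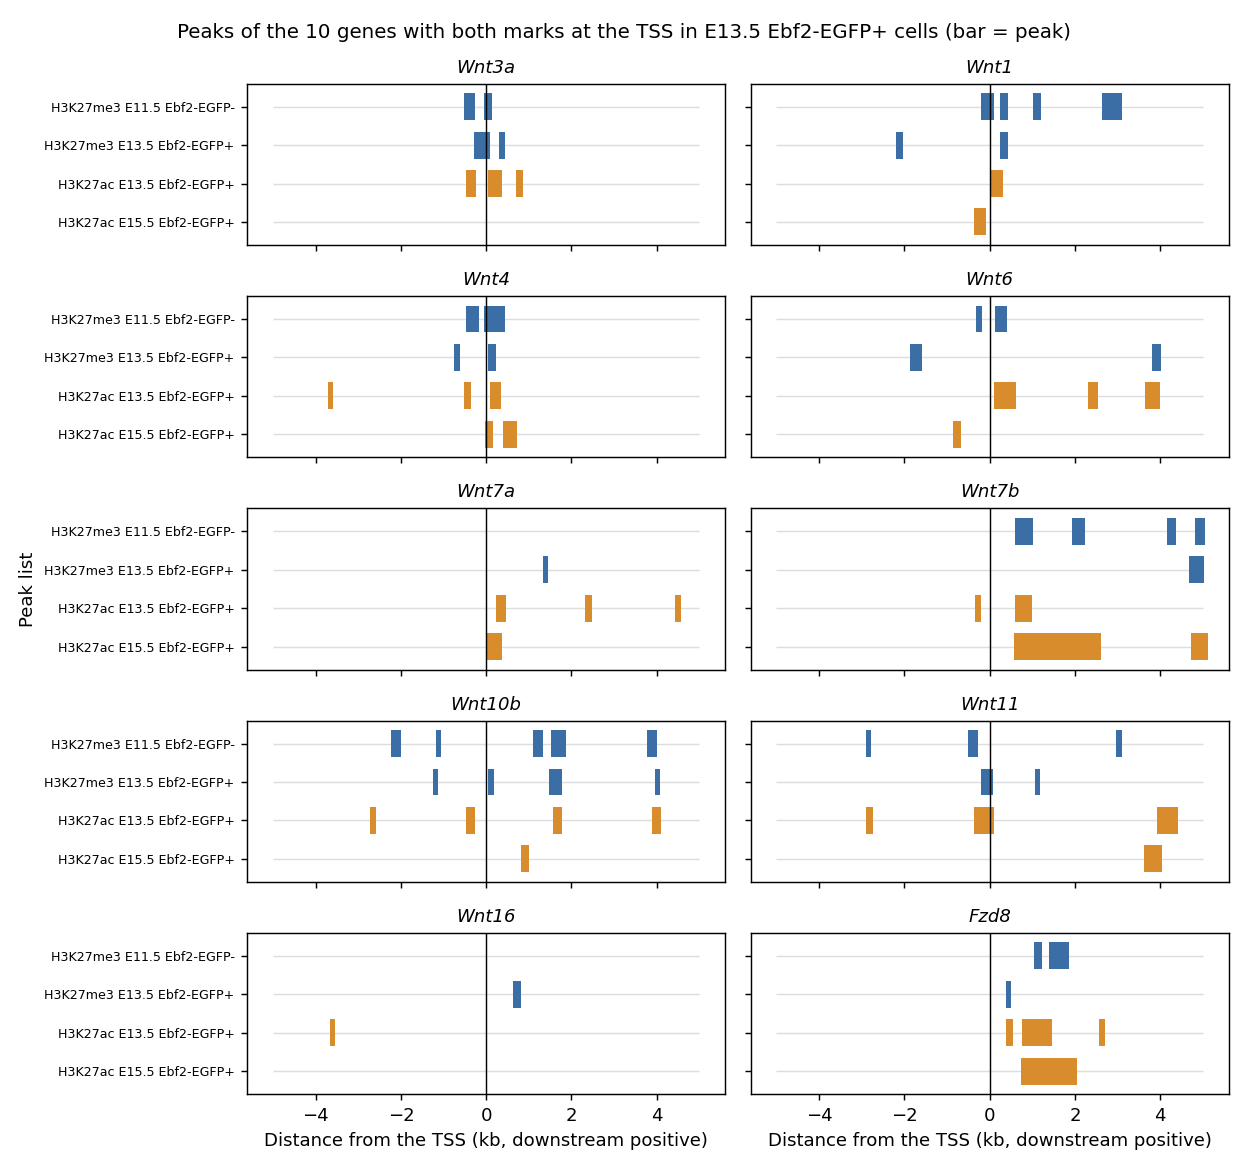
Peaks of 4 lists (y axis) by distance from the TSS in kb (x axis) for the 10 members with both marks in Ebf2-EGFP+ cells of E13.5, with H3K27me3 in blue and H3K27ac in orange. Peaks of the 2 marks overlap at 7 of the 10 genes, not at Wnt7a, Wnt7b or Wnt16. Such overlap was not counted over all genes. At E15.5 H3K27ac is listed at all but Wnt3a and Wnt16, beside 52.3% of all genes.

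None of the 10 had H3K27me3 at E15.5, when 1.06% of all genes had it, and 8 had H3K27ac then (52.3% of all genes). The widest member peak of any list was among them, an H3K27ac peak of 2036 bp centred in an intron of Wnt7b at E15.5 (chr15:85579875-85581910). It overlapped H3K27ac peaks of E11.5 and E13.5 and H3K27me3 peaks of Ebf2-EGFP- cells of E11.5. Wnt7b also had the most distal H3K27ac peaks of the members at E13.5 and E15.5, 46 and 17, and the most distal H3K27me3 peaks in Ebf2-EGFP- cells of E11.5, 30.

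The remaining ligands had no H3K27me3 in any Ebf2-EGFP+ list. Wnt5b, a relative of Wnt5a, had a single H3K27ac peak near the TSS at each of the 3 stages, of 915 bp, 211 bp and 584 bp in order of age. Wnt2 and Wnt10a carried H3K27ac at both E11.5 and E13.5. Wnt3, a ligand required for gastrulation, had 7 H3K27ac peaks at E13.5 and 1 of 246 bp at E15.5, and no H3K27me3. Wnt9b, known from kidney tubules, had a 380 bp H3K27ac peak across the TSS at E13.5 only. Wnt9a was the only ligand with H3K27ac in Ebf2-EGFP- cells of E11.5, a 163 bp peak that overlapped a 328 bp H3K27me3 peak (chr11:59307043-59307370) there. Its course, with H3K27ac at E11.5 and E13.5 and none at E15.5, was found in 6 of all genes.

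All 10 Frizzled receptors had H3K27ac at E13.5. Their TSSs were all CpG-rich (defined below), and of all such genes 7.92%, 78.3%, 79.4% and 86.2% had H3K27ac in the order of cell groups. For H3K27me3 the shares of CpG-rich genes were 69.7%, 5.17%, 12.4% and 1.35%. Over the cell groups, H3K27ac was listed at 2 of 10 in Ebf2-EGFP- cells of E11.5 and at 8, 10 and 8 along the Ebf2-EGFP+ stages, and H3K27me3 at 9, then 1, 1 and 0. Fzd2 and Fzd3, with the co-receptor Lrp6, shared a course of both marks in Ebf2-EGFP- cells of E11.5 and H3K27ac only in all Ebf2-EGFP+ lists, found in 2.27% of all genes. Fzd3, which guides growing axons, had the widest of these H3K27ac peaks, 758 bp (chr14:65261864-65262621), over H3K27me3 peaks of 467 bp and 377 bp. At Lrp6, the main co-receptor of the beta-catenin pathway, a 365 bp H3K27ac peak (chr6:134566436-134566800) overlapped a 677 bp H3K27me3 peak. At Fzd2 a 188 bp H3K27ac peak overlapped a 289 bp H3K27me3 peak. With peaks of at least 300 bp only Fzd3 and Lrp6 kept H3K27ac in that list.

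Fzd1, Fzd7, Fzd8, Fzd9 and Lrp5 had H3K27ac at all 3 Ebf2-EGFP+ stages and H3K27me3 without H3K27ac in Ebf2-EGFP- cells. Fzd1 had a 1187 bp H3K27ac peak at E11.5, the widest member peak of that list, and Fzd8 a 1312 bp peak at E15.5. At Fzd8 the 116 bp H3K27me3 peak of E13.5 overlapped a 154 bp H3K27ac peak, both centred in untranslated exon sequence. At Fzd9 an H3K27me3 peak of 147 bp in Ebf2-EGFP+ cells of E11.5 (chr5:135249887-135250033) lay 1270 bp downstream in the coding exon and met no H3K27ac peak. Fzd10 had no H3K27me3, and had H3K27ac at E13.5 and E15.5. Fzd5, needed in the developing eye, and Fzd6, known from hair patterning, had no H3K27ac at E15.5. Fzd4, the receptor of norrin in retinal vessels, had 3 H3K27me3 peaks of 201 to 415 bp in Ebf2-EGFP- cells, an H3K27ac peak centred at 517 bp (chr7:89404808-89404936) at E13.5 and a 293 bp peak at -227 bp (chr7:89403982-89404274) at E15.5, a course of 3.57% of all genes. Its TSS lies 133 bp from that of Tmem135, which was nearer to the E15.5 peak.

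The antagonists were marked less evenly. Among the Sfrp genes H3K27ac was listed at 0 of 4 in Ebf2-EGFP- cells of E11.5 (4.17% of all genes). Along the Ebf2-EGFP+ stages it was listed at 3, 4 and 2 (49.9%, 60.9% and 52.3% of all genes). Sfrp1, a progenitor gene of the cortex, had H3K27ac peaks of 784 bp, 523 bp and 899 bp just downstream of its start at the 3 stages, over H3K27me3 peaks of 419 bp and 235 bp from Ebf2-EGFP- cells. Sfrp2 had no H3K27me3, and its H3K27ac peaks were 327 bp at the start at E11.5 and 200 bp at -4558 bp at E13.5, a course of 2.09% of all genes. Sfrp4 had a 292 bp H3K27me3 peak in Ebf2-EGFP+ cells of E11.5 (chr13:19623195-19623486) that overlapped a 481 bp H3K27ac peak of the same cells. Its later H3K27ac peaks and the H3K27me3 peak of Ebf2-EGFP- cells lay nearer to the TSS of Epdr1, 3177 bp away. Sfrp5 had 4 H3K27ac peaks of 126 to 191 bp at E13.5 only.

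The Dkk genes had H3K27ac at 0, 2, 2 and 0 of 4 in the order of cell groups, and H3K27me3 at 2, 0, 0 and 1. None of their TSSs was CpG-rich. Of all genes without a CpG-rich TSS, 1.18%, 27.3%, 46.2% and 25.2% had H3K27ac and 31%, 4.73%, 6.83% and 0.828% had H3K27me3. Dkk1, the classical blocker of Lrp6, had a 296 bp H3K27ac peak at its start in Ebf2-EGFP+ cells of E11.5 (chr19:30549364-30549659) and no other peak within 5 kb, a course of 1.38% of all genes. Dkk2 had H3K27me3 in Ebf2-EGFP- cells and H3K27ac at E13.5. Dkk3, the most divergent member of the family, had H3K27ac at E11.5 and, in 4 peaks, at E13.5. At E15.5 it had no H3K27ac and an H3K27me3 peak of 248 bp centred at -1855 bp, outside the 1 kb window, a course found in 9 of all genes.

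Of the 26 members with H3K27ac in Ebf2-EGFP+ cells of E11.5, 16 had it at E15.5, where 80.2% of all such genes did. Of the 35 with H3K27ac at E13.5, 22 had it at E15.5, beside 67.7% of all such genes. The 10 genes marked at E11.5 and not at E15.5 were Wnt3a, Wnt5a, Wnt2, Wnt9a, Wnt10a, Fzd5, Fzd6, Sfrp2, Dkk1 and Dkk3. Leaving out peaks under 300 bp left 6 members with H3K27ac at all 3 stages, and the share of all genes under this limit was not computed.

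CpG content was not used in choosing the genes. Within 500 bp of the TSS 28 of 39 members were CpG-rich (a CpG observed to expected ratio above 0.6 and a GC content of at least 50%), beside 44.4% of all genes. All 10 Frizzled and both Lrp genes were CpG-rich, 13 of 19 ligands and 3 of 4 Sfrp genes were, and none of the Dkk genes. The lowest ratios of all members were 0.25 at Wnt8a, 0.31 at Dkk4 and 0.33 at Wnt8b, the genes without a peak. The next lowest was 0.35 at Wnt16. Among the ligands with H3K27me3 at E13.5, Wnt1, Wnt7b and Wnt16 were not CpG-rich, at 0.58, 0.46 and 0.35.

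CpG-rich genes as a whole were marked more often, so the members were also set beside them. H3K27ac was listed at 20 of the 28 CpG-rich members at E11.5 in Ebf2-EGFP+ cells (78.3% of all CpG-rich genes), at 28 at E13.5 (79.4%) and at 19 at E15.5 (86.2%). In Ebf2-EGFP+ cells the H3K27ac shares of the CpG-rich members were thus below those of CpG-rich genes at E11.5 and E15.5 and above them at E13.5. H3K27me3 was listed at 24 of the 28 in Ebf2-EGFP- cells of E11.5 (69.7% of CpG-rich genes) and at 7 at E13.5 (12.4%), of which 6 were ligands.

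**Figure D5:**
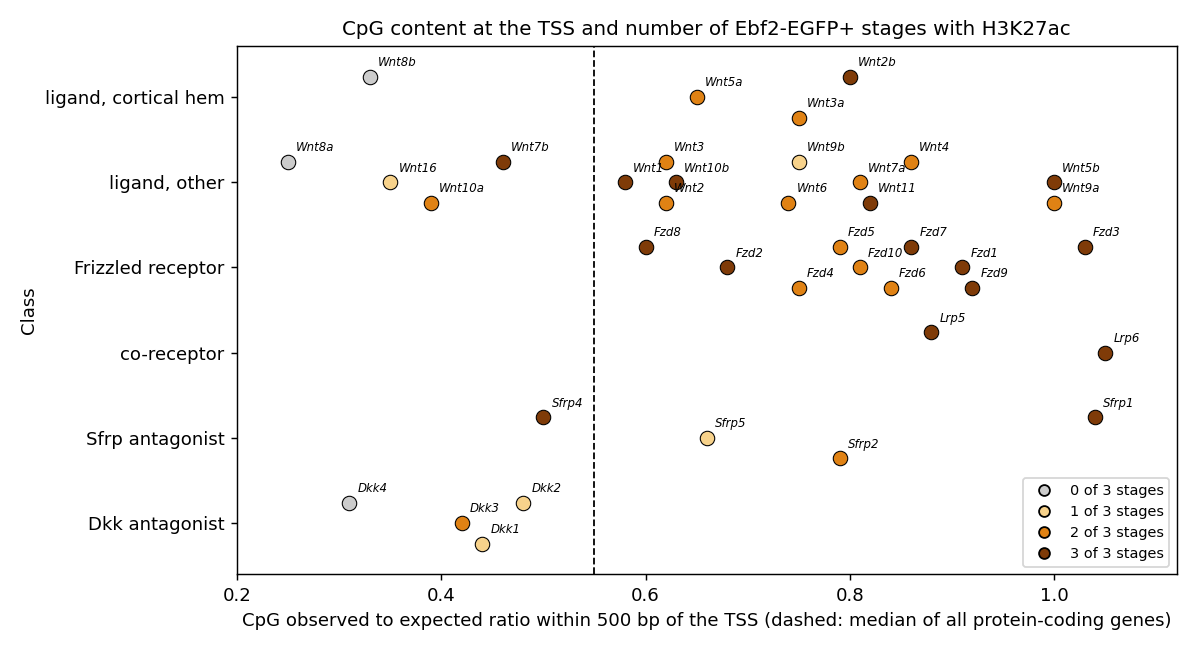
CpG observed to expected ratio within 500 bp of the TSS (x axis) for the 39 members by class (y axis, with points offset vertically for legibility), coloured by the number of Ebf2-EGFP+ stages with H3K27ac. Wnt8b, Wnt8a and Dkk4, with 0 stages, have the lowest ratios, and every Frizzled and Lrp gene lies above the median of all protein-coding genes, 0.55.

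The members' H3K27ac peaks were narrower than those at all TSSs at E11.5 and E15.5, by their medians, and alike at E13.5. In Ebf2-EGFP+ cells the median H3K27ac width was 245 bp at E11.5, 208 bp at E13.5 and 380 bp at E15.5, beside 280 bp, 204 bp and 480 bp at the TSSs of all genes. For H3K27me3 the median was 227 bp in Ebf2-EGFP- cells of E11.5 and 171 bp at E13.5, beside 211 bp and 155 bp. The GC content of the members' H3K27ac peaks had medians of 69.2%, 63.2% and 69.4% by stage, beside 66.5%, 61.3% and 65.4%.

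Of 50 other genes of the pathway, 4, 37, 45 and 41 had H3K27ac and 40, 3, 7 and 0 had H3K27me3, in the order of cell groups. The shares of all genes were 4.17%, 49.9%, 60.9% and 52.3% for H3K27ac and 48.2%, 4.92%, 9.31% and 1.06% for H3K27me3. All 13 cytoplasmic genes, among them the Dvl, Axin, Apc and Gsk3 genes and Ctnnb1 (beta-catenin), had H3K27ac at all 3 Ebf2-EGFP+ stages (33.1% of all genes). Of the 13, 10 had H3K27me3 in Ebf2-EGFP- cells of E11.5. Of the 8 nuclear genes, 7, 8 and 6 had H3K27ac by stage. H3K27me3 at E13.5 was listed at 5 of 18 secretion and extracellular genes, Notum, Sost, Rspo4, Lgr4 and Znrf3, and elsewhere at Nkd2 and Pygo2. Each of these 7 had both marks, as did most genes with H3K27me3 in that list. Of all genes, 8.39% had both marks there and 0.925% had H3K27me3 only. In Ebf2-EGFP+ cells of E11.5 H3K27me3 was listed at Kremen2, Lef1 and Pygo2, all with H3K27ac. H3K27ac in Ebf2-EGFP- cells of E11.5 was listed at Ryk, Apc2, Bcl9 and Celsr2, all with H3K27me3. Wls, which carries Wnt proteins to the cell surface, and Rspo3 were marked in the E15.5 H3K27ac list alone, while Wif1, Frzb and Sostdc1, antagonists outside the Sfrp and Dkk families, had H3K27me3 in Ebf2-EGFP- cells of E11.5 and no other peak.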

How the data were processed

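ChIP-seq of H3K27ac (antibody Ab4729) and H3K27me3 (Ab6002) was analysed from 8 deposited MACS peak lists, 1 for each mark and cell group. Per the study's methods and processing notes, the authors aligned reads to mm10 with Bowtie 1.1.2 on Galaxy, allowing up to 3 mismatches, and called peaks with MACS at a p-value of 1e-05. The MACS version, the control used and any pooling of replicates are not given in the sources used here. The score column the authors deposited was 0 for every peak, so only peak positions and widths, which the deposited lists give in bp, were used. Starts were read as counted from 0 and printed counted from 1, and the convention is not stated, which could shift them by 1 bp.

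Genes were the 21938 protein-coding genes of GENCODE M21 on chromosomes 1 to 19, X and Y. A gene was marked with a peak within 5 kb of its 5′ end and distally marked with a peak over 5 kb and up to 100 kb away. Peaks overlapped when they shared at least 1 bp. GC and CpG content came from GRCm38 within 500 bp of the TSS. Promoters came from RefSeq (GRCm38.p6) and matched 25 of the 39 members. Scripts ran in Python 3.11.15 and were tested on simulated peaks. No test was made, because each group had 1 list. Peak positions and widths were given for hem ligands, members with H3K27me3 in an Ebf2-EGFP+ list, with H3K27ac in Ebf2-EGFP- cells of E11.5 or with a course of their own, and other members were named with the lists that mark them. Alternatives were a TSS window of 1 kb, any transcript start, a minimum peak width of 300 bp, equal numbers of the widest peaks, Wnt7b as a hem ligand and a distal limit of 50 kb. The members and lists were chosen with earlier results of these data known.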

Additional observations from a re-analysis of the deposited data

How the results depend on the processing

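Depth is unknown and no separate lists for the replicates of a group were used, so the counts carry no error. No paired analysis was possible because each group had 1 peak list and no test was made. Of 116 recomputed counts, 75 stayed within 1.5 times the reported count. Some of the 75 could not have moved. A count of 0 cannot fall with a narrower window or a width limit. For the shortest list of each mark, the widest peaks in equal number are the list itself. Most of the counts that moved came from width. With peaks of at least 300 bp, H3K27ac was listed at 2, 13 and 17 members in Ebf2-EGFP- cells of E11.5 and Ebf2-EGFP+ cells of E11.5 and E13.5, beside 1.21%, 28.9% and 23% of all genes, and H3K27me3 at 16, 0, 3 and 0 members in the 4 cell groups, beside 16.8%, 0.242%, 0.62% and 0.128%. For the other ligands the H3K27ac counts were 0, 3, 7 and 5, and the H3K27me3 counts 5 in Ebf2-EGFP- cells of E11.5 and 2 at E13.5. For hem ligands H3K27ac was left at 1 at E11.5 and 0 at E15.5, and H3K27me3 at 0 in both E11.5 groups. The widest peaks in equal number (1386 for H3K27ac and 1438 for H3K27me3) left H3K27ac at 4, 0 and 4 members in Ebf2-EGFP+ cells by stage (6.25%, 1.39% and 6.87% of all genes), and H3K27me3 at 2 members in Ebf2-EGFP- cells of E11.5 and at 1 and 6 in Ebf2-EGFP+ cells at E11.5 and E13.5 (2.98%, 1.34% and 2.68%).

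A TSS window of 1 kb left H3K27ac at 1 hem ligand at E11.5 in Ebf2-EGFP+ cells (40.6% of all genes), H3K27me3 at 5 other ligands at E13.5 (5.34%) and at 0 members at E15.5 (0.451%). Counting any transcript start gave H3K27me3 at 5 members and 2 other ligands in Ebf2-EGFP+ cells of E11.5 (9.27% of all genes) and at 2 hem ligands at E13.5 (13.1%). With Wnt7b as a hem ligand, 2 hem ligands had H3K27ac at E15.5 and 2 had H3K27me3 at E13.5. A distal limit of 50 kb gave 4 members with distal H3K27ac only in Ebf2-EGFP- cells of E11.5 and 13 with distal H3K27me3 only in Ebf2-EGFP+ cells of E11.5.

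Further counts were recomputed after seeing the data. Both marks at E13.5 were left at 6 members and 5 ligands within 1 kb, and at 2 members, both ligands, with peaks of at least 300 bp. At E11.5, H3K27me3 in Ebf2-EGFP- cells with H3K27ac in Ebf2-EGFP+ cells was left at 15 members within 1 kb and 9 with peaks of at least 300 bp. H3K27ac at all 3 Ebf2-EGFP+ stages was left at 10 and 6 members. The narrower window and the width limit remove peaks by construction. Shares of all genes under these limits were not computed for the combinations, so a loss at the members cannot be told from a loss at all genes.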

Other observations

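The ligands include 4 pairs of neighbouring genes. The TSSs of Wnt1 and Wnt10b lie 11707 bp apart, those of Wnt3a and Wnt9a 16176 bp, those of Wnt6 and Wnt10a 19624 bp and those of Wnt3 and Wnt9b 24329 bp. No peak within 5 kb was shared within a pair, since the windows do not meet. Wnt1 and Wnt10b had the same state in all 4 cell groups. In the other pairs the states differed. Wnt3a had both marks at E13.5 where Wnt9a had H3K27ac only, Wnt6 had both marks where Wnt10a had H3K27ac only, and Wnt9b had H3K27me3 in Ebf2-EGFP- cells of E11.5 where Wnt3 had neither mark.

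The core of the TCF/LEF motif, CTTTGAT on either strand, was looked for in RefSeq promoters from 250 bases before to 50 after the start. It was found at 1 of the 25 members matched to a promoter, Wnt11, at -51 bases from the start on the opposite strand, and at 3.15% of 16521 matched protein-coding genes. The lack of other matches says only that these letters are not in these windows.

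Peaks over 5 kb and up to 100 kb from the TSS were common at the members as at all genes. In Ebf2-EGFP+ cells of E13.5, 38 of 39 members had such an H3K27ac peak (96.8% of all genes), with a median of 12 per member, and in Ebf2-EGFP- cells of E11.5, 38 had such an H3K27me3 peak (90.7%). Dkk4, with no peak within 5 kb, had 2, 7, 15 and 7 distal H3K27ac peaks in the order of cell groups.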
